A study of Mus musculus with 2 samples.

Results

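CTCF binding was described at 9 genes of the oligodendrocyte lineage, which were taken from a list of names and make up 9 of the 21938 protein-coding genes of the annotation. The genes Olig1, Olig2, Sox10, Nkx2-2, Pdgfra and Cspg4 were grouped as progenitor genes, and Myrf, Mbp and Cnp as myelin genes. A site was a peak of the authors' optimal list, the list of peaks that passed their irreproducible discovery rate (IDR) threshold, and its place was that of the summit. In the 9 genes or up to 50 kb beyond their ends lay 78 of the 56462 sites on chromosomes 1 to 19, X and Y. The chromatin came from forebrain of newborn mice (postnatal day 0) of strain B6NCrl, pulverized and pooled from several dissections, with no second genotype, treatment or age and with sex not collected. It was immunoprecipitated with a CTCF antibody, and the DNA was sequenced (ChIP-seq). The single group held 2 libraries, replicate 1 and replicate 2, which cite the same biosample and donor, so their spread may be technical only. Each replicate and the pool of both had a list of 300000 called peaks, and no read depth was stated.

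Oligodendrocytes wrap axons of the central nervous system in myelin. They arise from dividing progenitors that carry the growth factor receptor Pdgfra and the surface proteoglycan Cspg4, also called NG2. The development of oligodendrocytes depends on the transcription factors Olig1, Olig2, Nkx2-2 and Sox10. When progenitors leave the cell cycle, the factor Myrf turns on myelin genes, among them Mbp and Cnp. CTCF recognises a long, asymmetric DNA motif through its zinc fingers and holds chromatin loops together with cohesin, and loops form mostly between motifs that point towards each other. Peak lists hold no expression values, so the tissue could not be checked against marker genes. In whole forebrain, a site bound in fewer cells and a site bound more weakly per cell cannot be told apart.

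All 9 genes had at least 1 site in the gene or within 50 kb of it, as did 86.8% of all protein-coding genes. A summit within 1 kb of a transcription start site (TSS) was found at 5 of the 9, Olig2, Pdgfra, Myrf, Mbp and Cnp, against 36.8% of protein-coding genes. That share rises with the GC content around the TSS. It was from 38.8% to 62.7% in the deciles of GC content that hold the 9 genes. A summit between the annotated ends of the gene was found at 7 of 9, Olig1 and Olig2 being the exceptions, against 53.0% of all protein-coding genes and 52.1% of the 18063 genes whose length lay between those of the shortest and the longest member. With 9 genes, these counts are a description and were not tested. The number of sites went from 2 at Olig1 and 3 at Olig2 to 14 at both Pdgfra and Myrf. Per 100 kb of gene and surroundings, Olig1 had 1.96 sites and Olig2 2.91, below the median of 3.78 over protein-coding genes. The other 7 genes lay above it, from 4.28 at Nkx2-2 to 9.59 at Pdgfra and 10.6 at Myrf, which was more than at 94.3% of protein-coding genes. Of the 78 sites, 45 were in introns, 25 were intergenic, 4 were in coding exons and 4 in untranslated exon sequence, of any annotated gene. For 50 of the 78 the nearest protein-coding TSS was that of a member. The rest lay nearer to a neighbouring gene such as Polr2f, Fads1 or Nkiras2. Shares over all sites were not computed for these places, so the counts only describe the 78 sites.

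**Figure D1:**
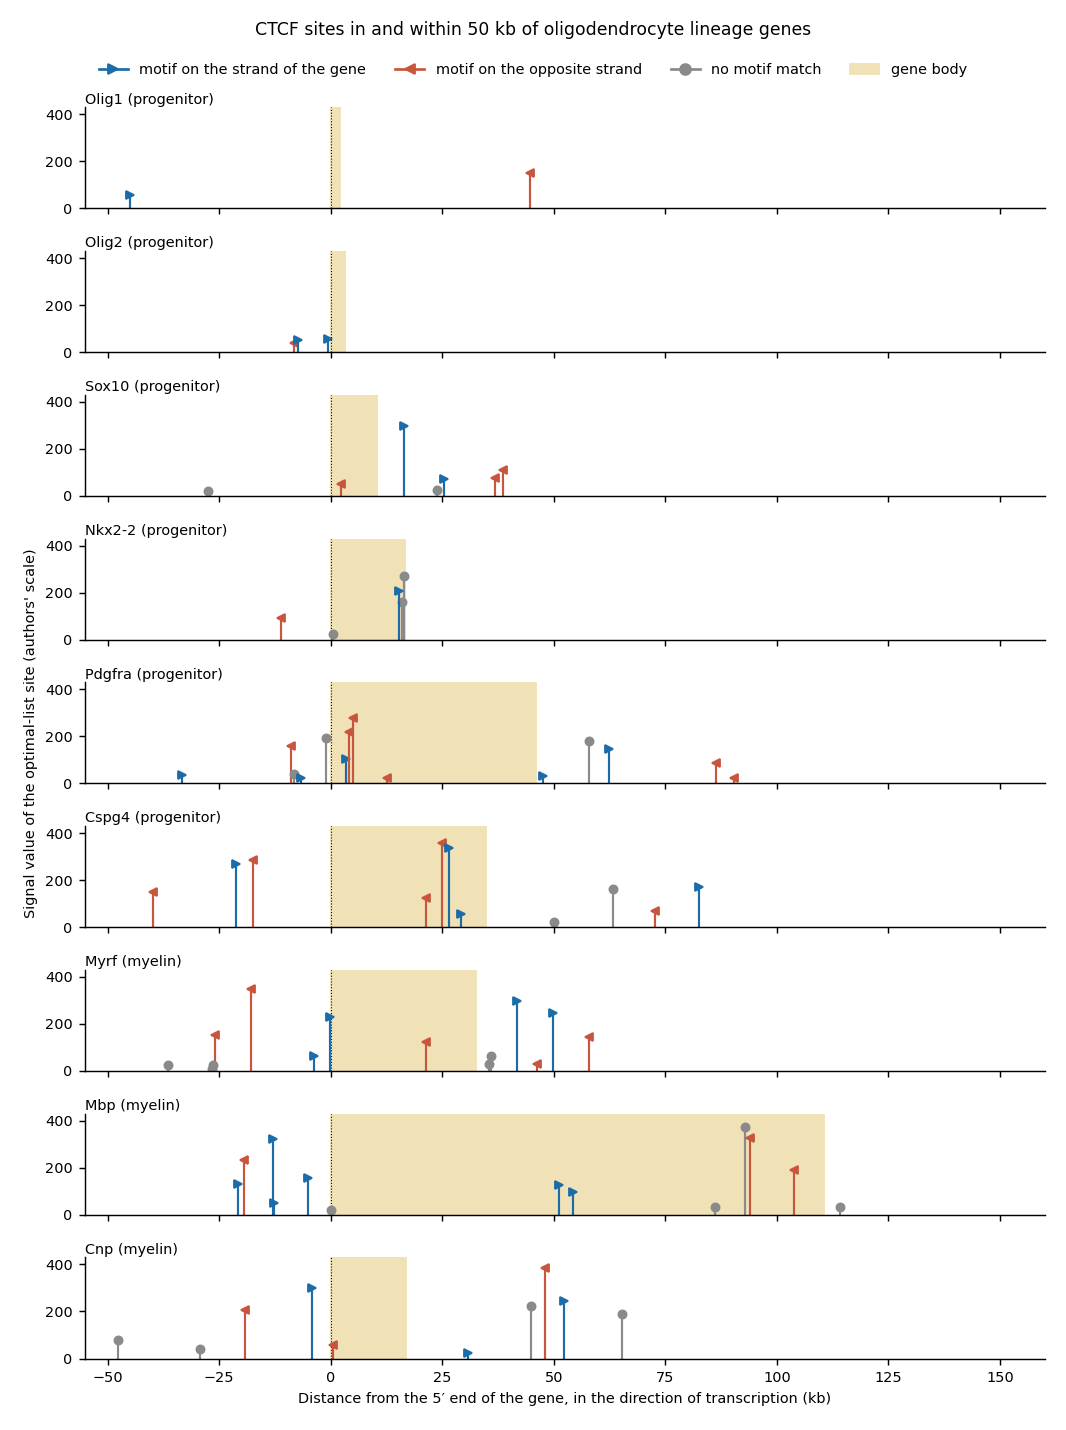
CTCF sites of the optimal list around each of the 9 genes, by distance in kb from the 5′ end of the gene (x axis) and signal value on the authors' scale (y axis). Arrowheads give the strand of the motif relative to the gene, grey circles are sites with no motif match, and shading is the gene body. Olig1 and Olig2 have 2 and 3 sites, Pdgfra and Myrf 14 each.

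The strength of a site is given by its signal value, a column of the authors' lists on a scale that the sources do not define. It served only to order and describe sites. Over all 56462 sites the median was 64.3, with quartiles at 32.2 and 165. The motif searched was the CTCF core motif, 14 bases long, on both strands, with at most 2 mismatches and wholly within 50 bp of the summit. It was found at 55 of the 78 sites (70.5%, Wilson 95% interval 59.6 to 79.5%, counting error only), near the 66.6% of all sites. Distances are given from the nearest TSS in the direction of transcription, so that upstream is 5′ of the gene, and coordinates are on mm10 (GRCm38).

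Olig1 and Olig2 encode basic helix-loop-helix factors of the lineage and are neighbours on chromosome 16 (Olig2 at 91225457 to 91228677, Olig1 at 91269772 to 91271933, both on the plus strand). Neither gene held a site in its body, and both lay in the same stretch of 89.4 kb without any site of the optimal list. Stretches of that length or longer made up 11.1% of the 56441 intervals between neighbouring sites, whose median was 15.8 kb. Each interval counted once whatever its length, so this is not the share of genes lying in such stretches, which was not computed. The 2 genes were the only protein-coding or long noncoding RNA genes wholly inside the 89.4 kb stretch. The left edge was the Olig2 promoter site, 567 bp upstream of the Olig2 TSS, with a signal value of 56.3 (36.2 in replicate 1 and 19.2 in replicate 2). The right edge lay 44556 bp beyond the Olig1 TSS in an intron of the noncoding gene Gm15966, with a signal value of 149 (82.9 and 65.8). The motif of the left edge was on the plus strand and that of the right edge on the minus strand, so that both point into the interval. These edge sequences are shown because they enclose both genes, each read 5′ to 3′ on the strand of its motif, with the motif match in capitals.
Olig2 promoter site, chr16:91224858-91224917, plus strand: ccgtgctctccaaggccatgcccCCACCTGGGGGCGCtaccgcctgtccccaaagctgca
Site downstream of Olig1, chr16:91314304-91314363, minus strand: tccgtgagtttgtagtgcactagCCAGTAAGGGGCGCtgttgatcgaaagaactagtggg
Each had 1 mismatch to the motif. Upstream of Olig2 a pair of weaker sites, 885 bp apart, lay 8192 bp and 7307 bp from the TSS, with signal values of 37.2 and 53.6. Replicate values at this pair were 19.3 and 18.9 for the farther site and 26.3 and 26.9 for the nearer, closer to each other than at the promoter. At the Olig2 promoter, replicate 1 exceeded replicate 2 by 0.72 on the log2 scale, after subtraction of the median log2 ratio of all sites. Of all sites, 12.9% were at least as unequal.

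Inside the 89.4 kb interval, the lists called on single replicates held weak peaks: 5 in replicate 1 and 3 in replicate 2 at a q-value of 0.05, the highest with signal values of 12.2 and 8.52. No summit of replicate 1 lay within 100 bp of one of replicate 2, and the closest pair was 103 bp apart. That pair stood at Olig1, 671 bp downstream of the TSS in replicate 1 (5.76, q = 0.0426) and 774 bp downstream in replicate 2 (8.52, q = 0.000239). The Olig1 promoter thus had a weak called peak in each library and no site in the optimal list.

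Nkx2-2 encodes a homeodomain factor of ventral progenitors and of oligodendrocyte differentiation (chromosome 2, 147177546 to 147194243, minus strand). No site lay within 1 kb of its TSSs, but 3 strong sites stood close together at the end of the gene, with gaps of 428 and 659 bp. The site in the coding exon, 8221 bp downstream of the TSS (147177757 to 147178025), had a signal value of 269.9, with 122 in replicate 1 and 143 in replicate 2. The middle site, 7793 bp downstream, had 162 (99.4 and 64.4). The third, 7134 bp downstream, had 206 (118 and 89.4). Of these 3, the third carried a motif match, with 2 mismatches, and the other two had 3 mismatches at best. The match is shown as the motif-bearing member of this cluster.
Nkx2-2 site in the gene body, chr2:147178936-147178995, minus strand: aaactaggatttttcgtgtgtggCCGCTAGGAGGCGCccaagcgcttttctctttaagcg
A weak site of 26.3 lay in an intron shared with the antisense gene Nkx2-2os, 485 bp inside the annotated 5′ end of the gene and 7354 bp from the nearest TSS of the transcript set used. Replicate 1 had 18.0 there and replicate 2 had 7.84, and the site was outside the authors' conservative list, their other IDR list. A site upstream in Nkx2-2os had 91.0 (42.7 and 48.1). At the TSSs themselves each replicate list had a single peak with a signal value of 3.94 in replicate 1 (q = 0.309) and 3.77 in replicate 2 (q = 0.165), near the floor of those lists, which was 3.20 and 2.81.

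Sox10, the SoxE factor needed for terminal differentiation (chromosome 15, 79154908 to 79165240, minus strand), had 1 site in its body and 6 beyond it. The site in the body was in an intron 1457 bp downstream of a TSS, just outside the 1 kb limit, with a signal value of 50.1 (30.5 in replicate 1 and 17.9 in replicate 2). Its motif match had 1 mismatch. The strongest site of the locus, 298 (164 and 133), was 15725 bp downstream of the TSS in an intron of Polr2f, which encodes a shared RNA polymerase subunit. The site in the gene and this stronger one are shown because their motifs lie on opposite strands and point away from each other, on either side of the 3′ part of Sox10.
Sox10 intron site, chr15:79162989-79163048, plus strand: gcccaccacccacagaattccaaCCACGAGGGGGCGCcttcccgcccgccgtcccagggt
Polr2f intron site near Sox10, chr15:79148734-79148793, minus strand: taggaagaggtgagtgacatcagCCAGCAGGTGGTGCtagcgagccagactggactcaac
Upstream of Sox10 the one site within 50 kb was weak, 21.8 (11.5 and 12.4), and had no motif match. A site 36053 bp downstream in Micall1 had a perfect match and a signal value of 77.7, with 29.3 in replicate 1 and 48.5 in replicate 2. Within 1 kb of the Sox10 TSSs replicate 1 had a peak of 3.41 (q = 0.455) and replicate 2 had no called peak.

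Pdgfra, the receptor for platelet-derived growth factor A that drives progenitor division (chromosome 5, 75152292 to 75198215, plus strand), had the most promoter sites of the 9 genes. The annotation gave it 4 TSS positions, of which the last (75155899) lay in an intron of the longer transcripts. The site at the upstream TSS, 979 bp before it (75151221 to 75151423), had a signal value of 194, with 99.2 in replicate 1 and 96.0 in replicate 2. The sites at the internal TSS lay 76 bp before it, with 105 (48.5 and 56.6), and 480 bp after it, with 218 (129 and 90.2). A stronger site, 279 (145 and 134), followed at 1370 bp, just outside the 1 kb limit. These 4 were thus above the median of all sites in the pooled value and in each replicate (medians over all sites of 34.9 and 30.2). The sequences of the 3 sites around the internal TSS are shown because they form a cluster with gaps of 556 and 890 bp. The one upstream of the first TSS had no motif match.
Pdgfra, 76 bp upstream, chr5:75155794-75155853, plus strand: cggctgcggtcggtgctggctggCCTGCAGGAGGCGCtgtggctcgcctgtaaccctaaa
Pdgfra, 480 bp downstream, chr5:75156362-75156391, minus strand: tgcgggagCCACTAGAGGGCGCggcaaccc
Pdgfra, 1370 bp downstream, chr5:75157231-75157290, minus strand: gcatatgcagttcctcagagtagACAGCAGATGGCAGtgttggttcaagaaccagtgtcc
The first is on the plus strand and has 2 mismatches, and the others are on the minus strand with 0 and 1. The last site in the body, 9000 bp from the internal TSS, was weak, 24.5 (17.6 and 9.82). All 14 sites in and around Pdgfra had its TSS as the nearest of any protein-coding gene. Upstream, a site with a perfect match lay 8892 bp from the TSS with 159 (77.1 and 81.1). Beyond the 3′ end, sites of 182 (96.6 and 84.8) and 146 (76.8 and 68.5) lay 54190 and 58810 bp from the TSS. By strongest overlapping peaks, the weak site of 31.7 just past the end of the gene was the most unequal of all 78. It had 9.89 in replicate 1 and 21.2 in replicate 2.

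Cspg4, the NG2 proteoglycan gene (chromosome 9, 56865033 to 56899870, plus strand), had no called peak within 1 kb of its TSS in the optimal list, the pooled list or either replicate. Its strong sites lay deep in the gene and upstream of it. The site in an intron 24886 bp downstream (56889795 to 56890040) had a signal value of 359, with 190.1 in replicate 1 and 171 in replicate 2, and was stronger than 96.7% of all sites. The next, 1684 bp farther, had 335 (194 and 143). A site in a coding exon of Cspg4 at 21269 bp had 124 (76.2 and 47.1), and one in an intron at 29205 bp had 56.9 (24.6 and 29.9). Upstream, sites at 17310 bp and 21253 bp had 287 (158 and 129) and 268 (140.0 and 126). The 2 strongest are shown because they are neighbours of nearly equal strength whose motifs point away from each other.
Cspg4, 24886 bp downstream, chr9:56889894-56889953, minus strand: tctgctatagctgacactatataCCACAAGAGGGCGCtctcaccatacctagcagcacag
Cspg4, 26570 bp downstream, chr9:56891565-56891624, plus strand: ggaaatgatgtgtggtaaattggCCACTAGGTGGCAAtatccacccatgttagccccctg
Each had 1 mismatch. The nearest site to the Cspg4 TSS was the one 17310 bp away, the second longest such distance of the 9 genes after Olig1.

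Among the myelin genes, Myrf had the promoter site with the highest pooled signal value of the 9 genes, although in replicate 1 that of Pdgfra was higher, 129 against 117. Myrf (chromosome 19, 10208272 to 10240748, minus strand) is a membrane-bound factor that releases a DNA-binding part and activates myelin genes. The site 96 bp upstream of its TSS (10240727 to 10240962) had a signal value of 228, with 117 in replicate 1 and 113 in replicate 2. A second site 3639 bp upstream had 62.1, with 44.7 and 17.5, a centred log2 ratio of 1.15. The first was thus of near-equal strength in both libraries and the second more than 2-fold apart. The strongest site, 349 (198 and 149.6), stood 17838 bp upstream in an intron of Dagla, and the 1 site in the body, 125 (62.3 and 60.3), had a perfect match. The promoter and Dagla sites are shown because they are the strongest upstream sites.
Myrf promoter site, chr19:10240776-10240835, minus strand: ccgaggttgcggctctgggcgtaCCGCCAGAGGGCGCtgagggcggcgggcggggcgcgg
Dagla intron site upstream of Myrf, chr19:10258554-10258613, plus strand: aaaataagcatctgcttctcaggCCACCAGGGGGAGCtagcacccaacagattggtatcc
Their motifs, on the minus and the plus strand, point away from each other. Of the 14 sites within 50 kb of Myrf, 6 had its TSS as the nearest.

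Cnp encodes an enzyme bound to the myelin membrane (chromosome 11, 100574904 to 100591729, plus strand). Its promoter site, in an intron 415 bp downstream of the TSS, had a signal value of 58.7, with 21.8 in replicate 1 and 37.7 in replicate 2. Of all sites, 6.45% were at least as unequal between the replicates. A stronger site lay 4274 bp upstream in an intron of Ttc25, with 298 (165 and 134). Both are shown because the TSS lies in the 4.69 kb between them.
Ttc25 intron site upstream of Cnp, chr11:100570597-100570656, plus strand: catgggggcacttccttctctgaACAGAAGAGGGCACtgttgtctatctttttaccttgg
Cnp promoter site, chr11:100575288-100575347, minus strand: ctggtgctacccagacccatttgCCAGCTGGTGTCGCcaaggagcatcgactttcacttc
Each had 2 mismatches, and the motifs, on the plus and the minus strand, point towards each other. The strongest site within 50 kb, 384 (203 and 181), belonged to the promoter of Nkiras2, 58 bp from its TSS. It was the strongest of all 78 sites.

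Mbp encodes the myelin basic protein that compacts the sheath, and an upstream start gives the longer Golli transcripts (chromosome 18, 82475146 to 82585637, plus strand). The annotation gave 3 TSS positions at the upstream start and 7 at the downstream start of the classic transcripts. The site at the upstream start, 123 bp downstream of a TSS in untranslated sequence, was weak, 20.2, with 7.70 in replicate 1 and 10.9 in replicate 2, and had no motif match. It was absent from the conservative list. At the downstream start the nearest site was 6631 bp away and weak as well, 31.6 (16.7 and 12.7). The strongest sites lay 13300 bp and 14490 bp past the downstream start, with 374 (205 and 171) and 325 (172 and 151), in an intron. Upstream of the gene, sites of 324 (173 and 149) and 234 (125 and 108) lay 12919 bp and 19480 bp from the TSS. The other body sites lay 28135 and 25076 bp before the downstream start, with 125 (61.0 and 62.5) and 95.6 (48.5 and 45.9), and 24285 bp past it, with 189 (100.7 and 86.5). Mbp thus had strong sites upstream and in its body, while the sites nearest to its 2 starts were weak. A further summit of 48.0, 199 bp from the one of 324, lay in the same peak, and the replicate values that overlap it are those of its stronger neighbour.

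Across the 9 genes, the nearest motif-bearing sites on either side of the annotated 5′ end pointed towards each other at 4, Olig1, Olig2, Myrf and Cnp, against 29.0% of protein-coding genes. The pair was the same for Olig1 and Olig2, so the 4 genes rest on 3 pairs of sites. The distance between the bracketing sites went from 4.69 kb at Cnp and 10.3 kb at Pdgfra to 89.4 kb at Olig1 and Olig2, with a median of 69.1 kb over protein-coding genes. With the conservative list the count was 5 of 9, and with the stronger 50% of the optimal list it was 2. Of the motif matches at the 78 sites, 27 were on the strand of the member and 28 on the other.

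Progenitor and myelin genes were compared by the counts and strengths of their sites. At the TSS, 2 of 6 progenitor genes and 3 of 3 myelin genes had a site within 1 kb. The signal value of the strongest promoter site was 56.3 at Olig2 and 218 at Pdgfra, and 20.2 at Mbp, 58.7 at Cnp and 228 at Myrf, so the ranges overlapped. Within 50 kb the progenitor genes had 41 sites in 654 kb, 6.27 per 100 kb, and the myelin genes 37 sites in 460 kb, 8.05 per 100 kb. The median signal value was 105 at progenitor sites (quartiles 41.8 and 182) and 129 at myelin sites (41.0 and 234), against 64.3 over all sites. Progenitor minus myelin, the difference of the median log2 signal values was -0.29 in the pooled values, -0.53 in replicate 1 and -0.41 in replicate 2. The direction depended on the grouping: with Sox10, which is expressed throughout the lineage, counted among the myelin genes it turned to 0.20. By gene, the median went from 53.6 at Olig2 to 163 at Cspg4 among progenitor genes and from 93.8 at Myrf to 198 at Cnp among myelin genes, so these ranges overlapped as well. Members are not replicates of a condition and no test was made. The shares with a motif were 75.6% of progenitor sites (Wilson 95% interval 60.7 to 86.2%) and 64.9% of myelin sites (48.8 to 78.2%), which overlap. Of the progenitor sites 13 were in the body of the member and of the myelin sites 9. The direction also depended on place. In the body the median signal value was 162 at progenitor and 125 at myelin sites. Outside the body it was 82.7 and 149, so the higher myelin median came from sites beyond the genes. Many sites lay nearer to another gene. The nearest protein-coding TSS was that of a member for 29 of 41 progenitor sites and 21 of 37 myelin sites.

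**Figure D2:**
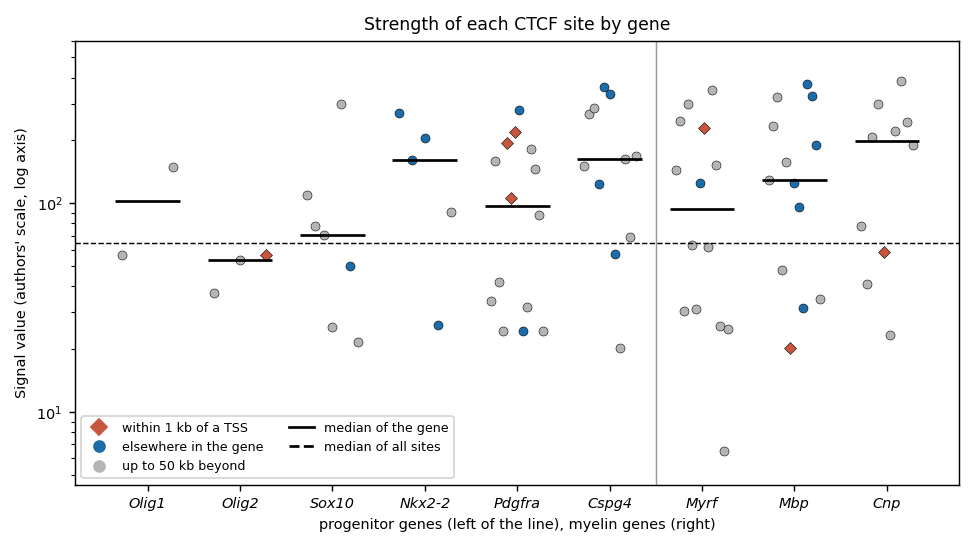
Signal value (y axis, log scale, authors' scale) of each of the sites in and within 50 kb of the 9 genes (x axis), with promoter sites as diamonds, the median of each gene as a bar and the median of all 56462 sites, 64.3, as a dashed line. The medians of the genes go from 53.6 at Olig2 to 198 at Cnp, and progenitor and myelin genes overlap.

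Promoter sites were looked at in each replicate because 4 genes had none in the optimal list. Of the 5 genes with an optimal-list site at a TSS, each had a called peak there at a q-value of 0.05 in both replicates. The strongest were 129 and 96.0 at Pdgfra, at different summits, and 117 and 113 at Myrf. The other 3 genes had from 7.70 at Mbp in replicate 1 to 37.7 at Cnp in replicate 2. Of the 4 without, Olig1 had a peak at that q-value in both, and Sox10, Nkx2-2 and Cspg4 had none in either. The GC content within 1 kb of the most upstream TSS used was above the median of protein-coding genes, 51.4%, at all 4. It was 60.5% at Olig1, 59.5% at Sox10, 56.2% at Cspg4 and 55.4% at Nkx2-2. In the deciles of GC content that hold these 4 genes, from 52.9% to 62.7% of protein-coding genes had a site within 1 kb of a TSS. In those that hold the 5 genes with a promoter site, the share went from 38.8% at Pdgfra to 55.7% at Mbp. Of the 5 genes with a promoter site, Mbp (59.2%), Olig2 (55.1%), Myrf (55.0%) and Cnp (53.2%) were above that median too, and Pdgfra was below it, so the GC content of the genes with and without a promoter site overlapped.

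**Figure D3:**
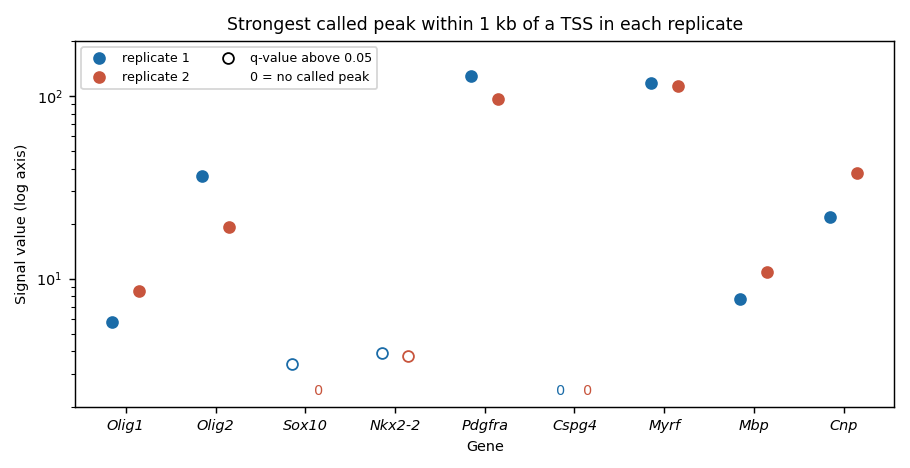
Strongest called peak within 1 kb of a TSS in each replicate (y axis, signal value, log scale) for each of the 9 genes (x axis). Open circles have a q-value above 0.05 and a 0 means no called peak. Pdgfra and Myrf stand highest in both replicates, and Cspg4 has no peak in either.

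At the 78 sites the replicates differed about as much as at all sites. The median absolute value of the centred log2 ratio was 0.21, against 0.23 over the 56235 sites with a peak in both replicates, and its SD was 0.42, against 0.50. Sites more than 2-fold apart after centring numbered 3 of 78, against 6.26% of all sites. These were the site past the end of Pdgfra, the site 3639 bp upstream of Myrf and the weak site in Nkx2-2, and all 3 had pooled signal values below the median of all sites. All 78 had a peak at a q-value of 0.05 in both replicates, near the 98.2% of all sites. Of the 78, 72 (92.3%) were in the conservative list, as were 86.8% of all sites. That list held 80 sites in these loci, so some of its sites were not in the optimal list. The weakest site, 6.50 in an intron of Dagla upstream of Myrf, was 206 bp from a stronger summit and shared its replicate peaks. With the nearest summit of each replicate instead of the strongest peak, its centred log2 ratio was 1.12. That of the Mbp summit of 48.0, which shares its peak, was -2.18, so both were then more than 2-fold apart. A replicate is a single library, and its differences from the other were not tested.

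**Figure D4:**
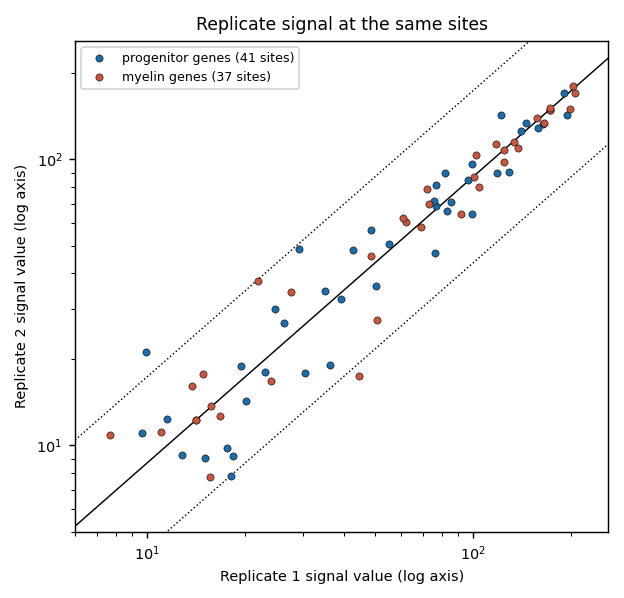
Replicate 1 (x axis) against replicate 2 (y axis) signal value, both on log axes, at the 41 progenitor and 37 myelin sites. The solid line is the median ratio over all sites and the dotted lines are 2-fold from it. Of the 78 sites, 3 lie outside the dotted lines.

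Sequence was compared among motif-bearing sites because some lay in repeats. The match was wholly in soft-masked sequence, which marks repeats, at 10 of the 55 motif-bearing sites, 7 at progenitor and 3 at myelin genes, against 20.1% of all motif-bearing sites. Of these 10, 3 sites of 3 different loci carried the same 14 bases: one 24699 bp downstream of the Sox10 TSS in 1700088E04Rik (signal value 70.7), one 7307 bp upstream of Olig2 (53.6) and one 82623 bp downstream of the Cspg4 TSS near Snupn (169). They are shown together for that reason.
Site near Sox10, chr15:79139776-79139835, minus strand: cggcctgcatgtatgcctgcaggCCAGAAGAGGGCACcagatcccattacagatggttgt
Site near Cspg4, chr9:56947626-56947685, plus strand: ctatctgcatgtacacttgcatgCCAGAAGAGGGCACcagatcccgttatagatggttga
Site near Olig2, chr16:91218114-91218173, plus strand: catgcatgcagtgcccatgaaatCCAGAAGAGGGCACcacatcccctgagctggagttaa
Outside the match, the sites near Sox10 and Cspg4 had 36 of 46 bases in common. Those near Olig2 and Cspg4 had 22, and those near Sox10 and Olig2 had 20. The median over 946 pairs of member sites was 12. Sites with unlike matches outside soft-masked sequence reached 22 as well, those 33257 bp upstream of Pdgfra and 21253 bp upstream of Cspg4. Only the pair near Sox10 and Cspg4 stood apart, since the next highest pair had 23. The 946 pairs leave out the 9 motif-bearing sites of Mbp and 2 sites read over 30 bases only. The same 14 bases were the best match at 1031 sites of the whole list, and at all 1031 of them the match was wholly in soft-masked sequence. The median signal value of those sites was 44.3. The only other match shared by member sites, at Sox10 in Micall1 (109) and in a coding exon of Fads1 near Myrf (30.4), was the best match at 55 sites, of which 1 was soft-masked. Their median was 169. It is known that short interspersed repeats of rodents have carried CTCF motifs to many places, but the repeat family of these sites was not annotated in the sources used here.

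Strength by number of mismatches was set beside that of the whole list. The 8 sites with a perfect match had a median signal value of 188, against 207 over all such sites, and went from 77.7 to 325. Those with 1 mismatch had a median of 137 (28 sites) and those with 2 had 105 (19 sites), against 110.5 and 60.5 over all sites. The 12 sites with 3 mismatches broke this order, with a median of 163 against 43.2 over all sites, above the member sites with 1 or 2. All 23 sites with more than 2 had a median of 41.0, against 38.3, and the strongest of them, the Mbp site of 374, was stronger than 97.4% of all sites. Sites with a neighbouring summit within 2 kb, a measure chosen after the clusters at Nkx2-2 and Pdgfra were seen, made up 28 of 78 (35.9%), against 24.1% of all sites.

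Other genes of the lineage were taken from lists of 15 progenitor and 20 myelin genes, and all were in the annotation. Like the members, these lists were chosen with earlier results of these data known. A site within 1 kb of a TSS was found at 9 of the 15 other progenitor genes and at 4 of the 20 other myelin genes, against 36.8% of protein-coding genes. In these lists the progenitor genes thus had the larger share, whereas among the 9 members the myelin genes had it. A site in the body was found at 12 of 15 and 10 of 20, against 53.0%, and these lists were not matched for gene length. All 35 had one in the gene or within 50 kb, as did 86.8% of all protein-coding genes. Of the other progenitor genes, Zfp536, a zinc-finger factor, had the strongest promoter site, 196 (114 and 82.2), 490 bp from a TSS and without a motif match. Sox8, a SoxE factor like Sox10, had 81.1 (48.4 and 32.5), and C1ql1, a secreted C1q-like protein, 66.9 (32.6 and 34.5). Of the other myelin genes, Fa2h, which hydroxylates the fatty acids of myelin lipids, had a promoter site of 57.5 (30.5 and 29.5), and Tspan2, a tetraspanin, 48.4 (32.4 and 24.7). Mog, Mag and Mobp, which encode structural proteins of myelin, had no site within 1 kb of a TSS, and were named after their values were seen.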

How the data were processed

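CTCF ChIP-seq peak lists of 2 libraries of 1 group were analysed, with no second condition. The signal value per peak was deposited by the authors, and its scale was not stated. The −log10 q-value per peak and, in the IDR lists, a score from 537 to 1000 were also deposited by the authors. Aligner and peak caller: not given in the sources used here. Files are on mm10 per the labels. All peak ends lay within GRCm38 chromosomes, and 8 optimal-list peaks on other contigs were left out.

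A summit was the peak start plus its offset. TSSs were the 5′ ends of GENCODE M21 basic transcripts, and the genome sequence was RefSeq's GRCm38. A replicate's value at a site was that of its strongest overlapping peak. Log2 ratios were centred on the median over all sites (0.20). Sites of overlapping windows were counted once.

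The members and lists were chosen with earlier results of these data known. Named were all 9 members, their sites in the gene or at a TSS, the strongest beyond it, and up to 3 genes of each other list with the highest promoter signal, of which not all are reported here. Further sites were named after their values were seen. The farthest site inside the 50 kb limit was 48504 bp beyond Cnp (189), and the nearest outside it 51622 bp from Olig1 (53.6). No test across genes was made. Alternatives were other lists, single replicates, distances, TSS sets, groupings and motif thresholds. The scan was checked on simulated data and recovered 100% of 2000 planted motifs, all perfect matches. Recovery of matches with mismatches was not checked. Of 2000 random windows, 1.65% had a match with at most 2 mismatches. Python 3.11.15, numpy 2.4.6, pandas 2.3.3, scipy 1.17.1, pysam 0.24.0, samtools 1.23.1 and matplotlib 3.10.9 were used.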

Additional observations from a re-analysis of the deposited data

How the results depend on the processing

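Of 65 alternative values of the 10 results, 51 stayed within 1.5 times the reported count or within the spread used for other values. With the stronger 50% of the optimal list, 2 of 9 genes had a site within 1 kb of a TSS (Pdgfra and Myrf), 1 progenitor and 1 myelin gene. With that list the loci held 49 sites, 81.6% had the motif and 2 genes were bracketed by motifs pointing towards them. The difference of progenitor minus myelin median log2 signal was -0.45 there, -0.37 with the conservative list and -0.43 to -0.37 with the strongest 56470 peaks of a single replicate, leaving out the other, and 0.20 with Sox10 among the myelin genes. At 500 bp from a TSS 1 progenitor gene had a site. The motif was found at 46.2% of sites with at most 1 mismatch and at 85.9% with at most 3. The cause of these changes was not tested. With 1 TSS per gene, Nkx2-2 gained a promoter site, giving 6 of 9. The conservative list lost that of Mbp. No paired analysis was possible because there is 1 group. Read depth is not known, so a missing site may be a site below detection.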
